A study of Mus musculus with 15 samples.

Results

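Healthy kidney was compared with healthy lung in 6 of the 14 samples of the series, 3 kidneys and 3 lungs of the same 3 untreated mice. All were BALB/c mice, a common inbred laboratory strain, and the labels call their disease state healthy. The mice are numbered H557, H563 and H565, and each gave both organs, so the 3 samples of a group are 3 separate animals. The samples were chosen by the group and animal number in their titles. The labels give no age or sex, and each sample is RNA of an organ, not of a sorted cell type. The tissue field of the H557 kidney names the lung, while its title and source name the kidney, and these were followed. The remaining 8 samples of the series are fibrotic or UUO-mouse organs (UUO is unilateral ureteral obstruction, surgical closure of the ureter of 1 kidney), and they enter here through the normalisation, the choice of probes, the shared estimate of the spread and 1 comparison at the end. The series title is about claudins of tight junctions, vessel differences between organs and organ-directed metastasis, and the comparison of healthy organs addresses how kidney and lung differed without injury.

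The kidney filters blood in glomeruli, whose filter is made of fenestrated endothelium, a basement membrane and podocytes. The proximal tubule then takes back sugar, phosphate, amino acids and protein, the loop of Henle and distal tubule take back salt and divalent cations, and the collecting duct adjusts water and acid under hormonal control. The lung exchanges gas across thin alveolar type 1 cells and a dense capillary bed, alveolar type 2 cells secrete surfactant, club and ciliated cells line the airways, and elastic fibres give recoil. Claudins are the membrane proteins that set what passes between cells at tight junctions, and each epithelium and endothelium uses its own set.

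Values are log2 intensities of Illumina array probes after background correction and quantile normalisation, 1 probe per gene, and a difference of 1 is a 2-fold difference. Each set of 3 values is given in the order of mice H557, H563 and H565, and differences are kidney minus lung with the standard error of the fit. The test was limma's moderated test with Benjamini-Hochberg adjustment over 11648 genes, and a gene passed at an adjusted p under 0.05. A probe counts as above background at a deposited detection p under 0.05. Where a probe was not above background in any sample of 1 organ, the fold is written as at least N-fold, measured against the dimmest signal that could be told from background. Levels of different probes are not comparable with each other on this platform.

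Defining genes of kidney (Umod, Slc12a1) and of lung (Sftpc, Ager) separated the 6 libraries as labelled, and transcripts of liver, heart and skeletal muscle were also present in some of them. Kidneys correlated with each other at 0.986 to 0.989 over the genes tested, and kidneys with lungs at 0.668 to 0.728. The H565 lung correlated at 0.920 and 0.932 with the other lungs, which correlated with each other at 0.985. It held liver transcripts: the 34 liver genes tested had a median log2 intensity of 6.87, 6.47 and 5.75 in the kidneys, against 4.57, 4.61 and 11.72 in the lungs, and all 34 were above background in the H565 lung. In kidneys 28, 26 and 20 of these 34 were above background, and 13 and 14 in the H557 and H563 lungs. Whether the kidney signals came from liver tissue was not tested. The 20 heart muscle genes had medians of 4.53, 4.44 and 4.53 in kidneys and 11.52, 9.94 and 4.99 in lungs, highest in the H557 lung. Skeletal muscle genes (8 tested) had medians of 4.58, 4.69 and 4.57 in kidneys and 10.94, 6.73 and 5.28 in lungs. Of the heart genes, 18 of 20 were lower in kidney, and 12 with the mouse as a block. Of the liver genes, 5 were lower in kidney (Hamp, Itih4, Trf, Apoc1 and Rbp4, of which Apoc1 and Rbp4 did not pass with the mouse as a block), none was higher and 29 did not pass, with a median of -1.07. Without the H565 lung, 8 were higher and 4 lower, with a median of 1.01. Without that lung the differences of Apoc1, Itih4, Rbp4 and Trf were -1.30, -4.13, -1.39 and -3.36, against -2.79, -4.80, -2.32 and -4.27 with it. The 5 thymus and lymph node genes had medians of 5.675, 5.696 and 5.743 in kidneys and 9.227, 7.425 and 9.054 in lungs, lowest among lungs in H563. The 5 fat genes had medians of 5.915, 5.306 and 4.933 in kidneys and 8.472, 5.842 and 6.403 in lungs, highest in the H557 lung. The part of these tissues in the other differences was not tested beyond leaving out the H565 lung. Xist was not above background in any of the 6 samples and the Y-linked genes Eif2s3y and Kdm5d were above it in all 6. Detected probes made up 32.4% to 34.4% of all probes in kidneys and 37.4% to 38.4% in lungs.

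Of 11648 genes, 3469 (29.8%) were higher and 4293 (36.9%) lower in kidney, so 66.6% passed in either direction, and the median difference of all genes was -0.14. A 2-fold difference or more was seen for 1987 genes (17.1%) higher and 2639 (22.7%) lower in kidney. The 6 samples did not overlap between organs for 3857 genes (33.1%) with kidney above lung and 4749 (40.8%) with kidney below lung. All 3 mice gave the direction of the fit for 3436 of the 3469 genes and for 4246 of the 4293. In all, 262 genes were above background in every kidney and in no lung, and all of them passed. In the reverse direction this held for 979 genes, of which 887 passed. The split depends on scaling. Higher genes were 44.7% of the calls here, 35.7% with each array scaled to its median and 64.7% with the authors' deposited matrix values, where the median of all genes was 0.32. Without the H565 lung, 3253 genes were higher (27.9%) and 4193 lower (36%), 7223 of the calls were shared, 539 were lost and 223 gained. The genes called here had 4514 other kept probes, of which 3779 (83.7%) gave the same direction and 301 were called in the opposite one. Among genes named below, a further probe did not pass for Aqp1, Cxadr, Cyp2b10, Elf5, Fn1, Pgam1 and Plet1, and a further probe was called higher in kidney for Cpt1b, Elf3 and Wnk1. Leaving out 1 sample at a time ended the calls of Apoc1, Aqp1, Col18a1, Elf5, Hoxa4, Kcnj8, Kdr, Oat and Pkp3 among the genes named. In whole-organ RNA, fewer cells of a type and less RNA per cell cannot be told apart.

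**Figure D1:**
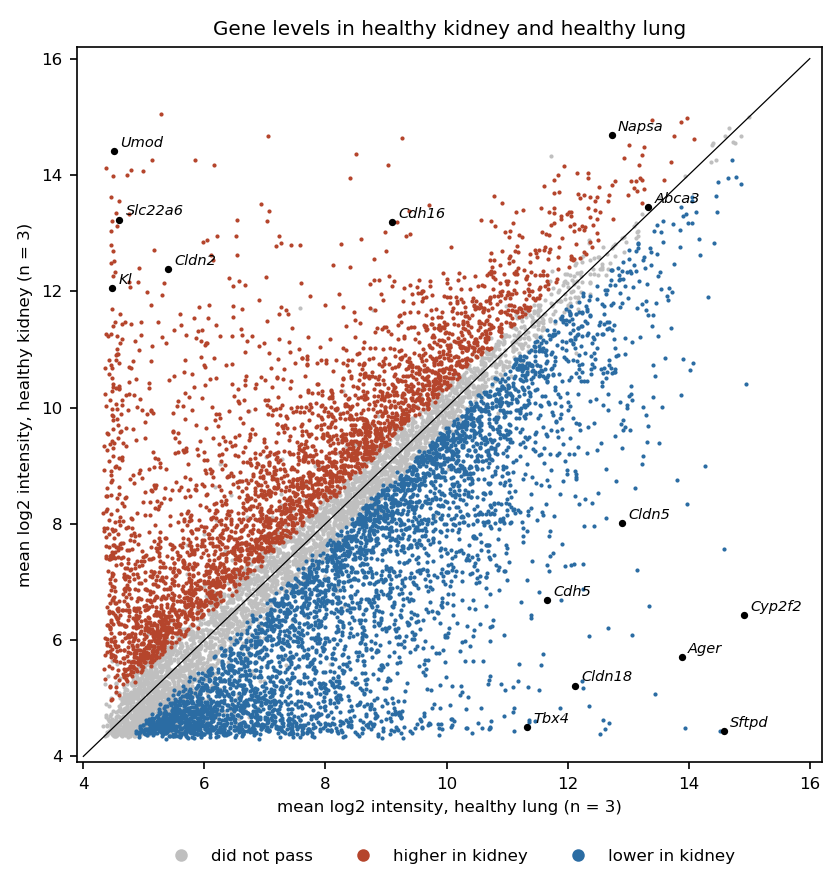
Mean log2 intensity of each of 11648 genes in healthy kidney (vertical axis, n = 3) against healthy lung (horizontal axis, n = 3), with genes higher in kidney in red, lower in kidney in blue and those that did not pass in grey. Kidney genes such as Umod and Kl lie at the lung's background at the left edge, and Sftpd and Tbx4 at the kidney's background at the lower edge.

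The largest differences in favour of kidney were tubule products and enzymes. Umod, which encodes uromodulin, the most abundant protein of normal urine and a product of the thick ascending limb, had 14.25, 14.50 and 14.47 in kidneys, against 4.51, 4.52 and 4.49 in lungs, where it was not above background, a difference of 9.90 ± 0.81 or at least 715-fold (adjusted p 4.12e-07). Slc34a1, the sodium phosphate cotransporter of the proximal tubule, had 15.08, 15.08 and 14.996 in kidneys and 4.45, 6.51 and 4.88 in lungs. Its lowest kidney value lay far above its highest lung value. The difference was 9.77 ± 0.73 (adjusted p 1.91e-07), and 9.57 without the H565 lung. Dnase1, a secreted nuclease, was at least 585-fold higher in kidney, the kallikrein protease gene Klk1b27 at least 534-fold, Miox, the oxygenase that breaks down inositol, at least 537-fold, and Hsd3b4, a steroid dehydrogenase, at least 416-fold. Kap, a kidney androgen-regulated protein, differed by 9.29, Spink1, a trypsin inhibitor, by 9.13, Fxyd2, the small regulatory subunit of the renal sodium pump, by 9.08 and Klk1b26 by 8.96. Kallikreins are close paralogues, and probes of one may bind transcripts of another.

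In favour of lung the largest differences included genes of secreted proteins, among them surfactant proteins. Sftpd, surfactant protein D, had 4.45, 4.47 and 4.41 in kidneys, below detection in all 3, and 14.69, 14.55 and 14.50 in lungs, a difference of -10.14 ± 0.16 or at least 646-fold lower in kidney (adjusted p 2.03e-12). Scgb1a1, the secretoglobin of club cells, had 4.49, 4.47 and 4.36 in kidneys and 14.72, 14.26 and 14.55 in lungs, at least 615-fold lower in kidney. The surfactant protein genes Sftpc, Sftpa1 and Sftpb were at least 414-, 165- and 173-fold lower in kidney, Akap5, an anchoring protein of protein kinase A, at least 161-fold and Cxcl15, a lung chemokine, at least 155-fold. Cyp2f2, a club cell cytochrome, differed by -8.48, Chil1, a chitinase-like protein, by -8.38 and Ager, the receptor for advanced glycation end products of type 1 cells, by -8.18.

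**Figure D2:**
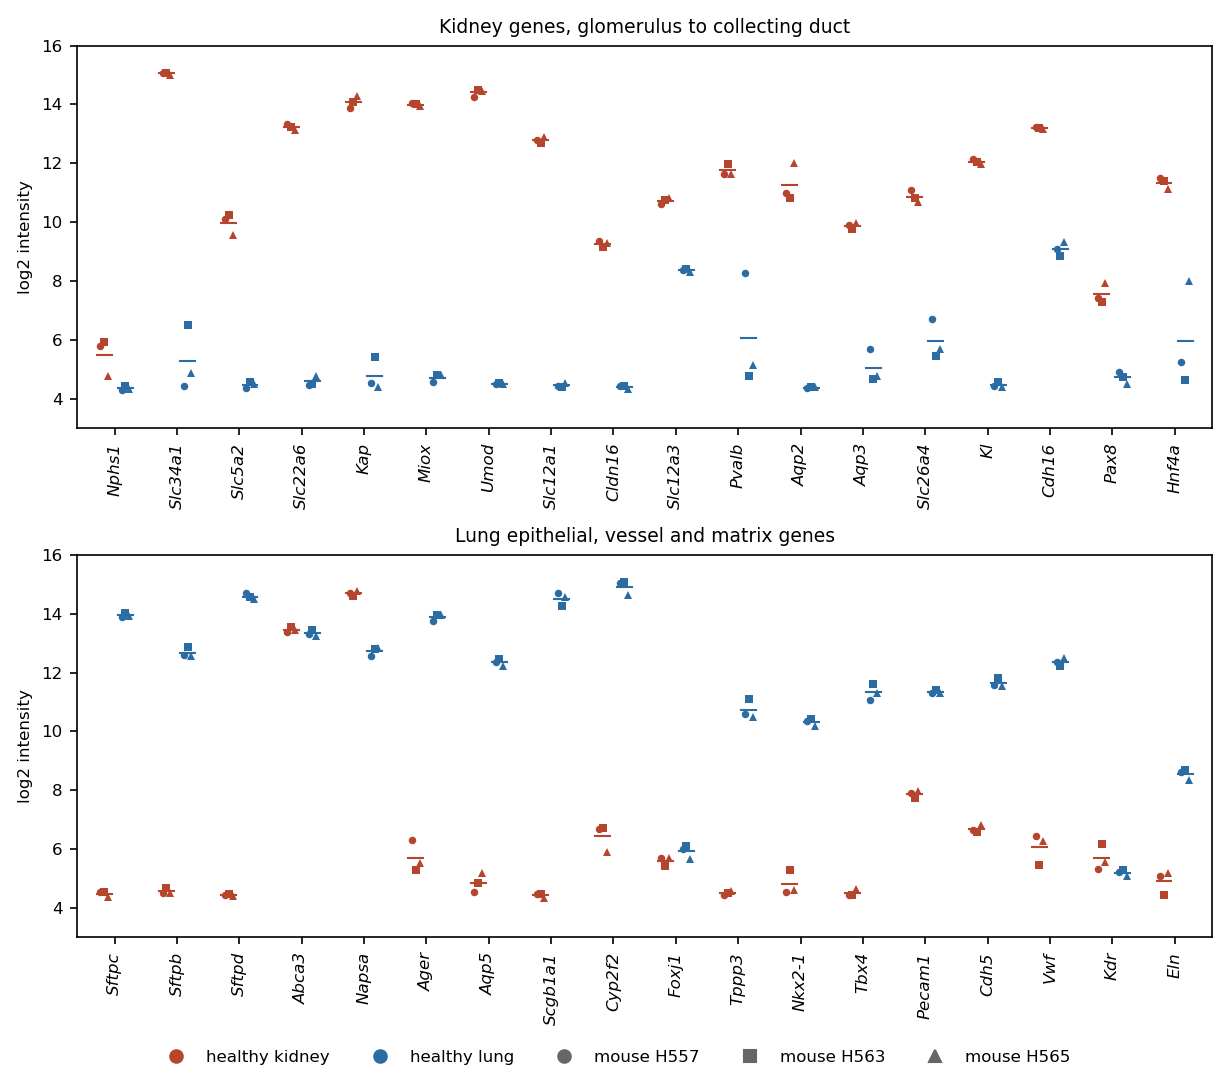
Log2 intensity of 18 kidney genes (top) and 18 lung, vessel and matrix genes (bottom) in each healthy kidney (red, left of each pair) and healthy lung (blue, right), with mice marked by shape and bars at the mean of 3. Kidney genes from glomerulus to collecting duct separate fully in favour of kidney, while Abca3, Foxj1 and Kdr lie close together in both organs and Napsa is higher in kidney.

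From the glomerulus, few podocyte genes were higher in whole kidney than in whole lung. Of 11 podocyte genes tested, 2 were higher and 8 lower in kidney, with a median of -1.32. Nphs1, nephrin of the slit diaphragm, had 5.80, 5.93 and 4.76 in kidneys, above background in 2 of them, and 4.28, 4.44 and 4.32 in lungs, where it was not above background (fitted difference 1.15 ± 0.31, at least 1.48-fold higher, adjusted p 0.00561). Rhpn1, a rhophilin, was at least 4.87-fold higher. Of those lower in kidney, Clic3, an intracellular chloride channel protein, differed by -4.79, Tcf21, a mesenchymal transcription factor, by -2.48 and Podxl, the sialomucin of podocytes and endothelium, by -1.43. These genes are also expressed outside podocytes, which whole-organ RNA does not separate.

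Proximal tubule transporters were higher nearly throughout. Of 30 uptake transporters, 29 were higher and 1 lower in kidney, with a median of 4.63 against -0.14 for all genes and 29.8% of all genes called higher. Amn, amnionless of the protein uptake receptor, had 12.16, 12.26 and 12.08 in kidneys and 4.95, 4.69 and 4.62 in lungs, a difference of 7.41 ± 0.20. The sodium-coupled carriers Slc5a10 and Slc5a12 were at least 80.6- and 91.7-fold higher, and Slc5a8 was higher by 6.82. Aqp1, the water channel of proximal tubule and of lung endothelium, was the 1 lower gene, at -0.52 ± 0.19 (adjusted p 0.0284), with the opposite sign, 0.34, in the deposited matrix values and no call there or with median scaling. Of 18 organic ion transporters, 17 were higher and none lower, with a median of 4.84. Slc22a6, which takes up organic anions and many drugs from blood, had 13.34, 13.23 and 13.12 in kidneys and 4.48, 4.51 and 4.79 in lungs, at least 316-fold higher in kidney. Slc22a12, the urate exchanger, and Slc22a19 were at least 102- and 54-fold higher, Slc22a30 was higher by 6.24 (7.10 without the H565 lung), while Abcb1b, an efflux pump, did not pass (0.22 ± 0.29). Slc22 members are alike in sequence, so some probes may read more than 1 of them.

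Brush border and other tubule enzymes followed, with 20 of 23 higher and 2 lower in kidney and a median of 4.33. Mep1a, a meprin metalloprotease of the brush border, was at least 76.3-fold higher, and Keg1, a kidney-expressed acyltransferase, was higher by 7.62 ± 1.44, which became 9.69 without the H565 lung. Glyat, which conjugates glycine to acyl groups, was higher by 6.57, and by 8.60 without that lung. Ace, angiotensin-converting enzyme, was lower in kidney by the probe used (-2.53 ± 0.16), with 10.04, 10.003 and 10.10 in kidneys and 12.64, 12.65 and 12.45 in lungs. Another 2 probes of Ace gave differences of 0.32 and 0.14 that did not pass. Dpp4, a dipeptidase, was also lower (-0.97), and Gatm, of creatine synthesis, did not pass (0.88).

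Loop of Henle and distal tubule genes were higher in 16 of 18 and lower in 1, with a median of 4.37. Slc12a1, the furosemide-sensitive salt cotransporter, had 12.80, 12.68 and 12.88 in kidneys and 4.42, 4.41 and 4.53 in lungs, at least 233-fold higher in kidney (adjusted p 3.02e-08). Klk1 differed by 8.57, Egf by 7.26, and Kcnj1, the potassium channel of the thick limb, was at least 68-fold higher. Trpm6, a magnesium channel, was lower in kidney (-1.89 ± 0.22), and Wnk1, a kinase of salt transport, did not pass (-0.28 ± 0.24).

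Collecting duct genes were higher in 16 of 22 and lower in 4, with a median of 2.24, and 1.88 without the H565 lung. Aqp2, the vasopressin-regulated water channel, had 10.98, 10.81 and 11.99 in kidneys and 4.35, 4.39 and 4.39 in lungs, at least 80.7-fold higher in kidney (adjusted p 3.31e-10). Fxyd4 and Slc26a4, the chloride-bicarbonate exchanger pendrin, were higher by 5.68 and 4.92, and Hsd11b2, which protects the mineralocorticoid receptor, was at least 23.5-fold higher. Aqp3, a basolateral water channel, was higher by 4.83. The 3 subunit genes of the epithelial sodium channel were lower in kidney, with differences of -2.64 for Scnn1a, -2.13 for Scnn1b and -2.16 for Scnn1g, and with all 6 samples above background. This channel serves fluid clearance in the alveolus as well as the collecting duct. The transcription factor Elf5 was lower as well (-1.38), but not with the mouse as a block (adjusted p 0.0516). Slc4a1, the anion exchanger of red cells and intercalated cells, did not pass (1.17) except with the block (adjusted p 0.00168), nor did Atp6v1b1 (0.39). Another probe of Atp6v1b1, a proton pump subunit of intercalated cells, was higher by 2.19.

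Of 10 kidney hormone and vitamin D genes, 8 were higher and none lower, with a median of 2.91. Kl, klotho, the coreceptor of FGF23 in the tubule, had 12.15, 12.04 and 11.97 in kidneys and 4.45, 4.57 and 4.41 in lungs, at least 139.5-fold higher in kidney (adjusted p 9.13e-10). Pth1r, the parathyroid hormone receptor, was higher by 6.30, Cyp24a1, which inactivates vitamin D, by 5.13 and Vdr, its receptor, by 4.16. Cyp4a12a, a fatty acid hydroxylase, was higher by 6.18 ± 1.10, and by 8.07 without the H565 lung. Cyp27b1, which makes the active hormone, was above background in 2 of 3 kidneys and in no lung, and at least 1.55-fold higher. Fgfr1 (0.60) and Agt (-0.76) did not pass, and Ren1 was not among the genes tested.

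Most energy metabolism genes were higher in kidney. Of 69 respiratory chain subunits, 65 were higher and 1 lower, with a median of 1.16. The counts were 63 and 2 without the H565 lung (median 1.12). Atp5pb, an ATP synthase subunit, had 11.998, 12.01 and 11.78 in kidneys and 9.71, 9.73 and 9.84 in lungs, a difference of 2.17 ± 0.19 with no overlap. Cycs, cytochrome c, was higher by 2.04 and Sdhb, of complex II, by 1.86. Cox4i2, the lung-expressed isoform of a cytochrome oxidase subunit, had 4.45, 4.62 and 4.60 in kidneys and 9.19, 9.74 and 9.61 in lungs, at least 19.2-fold lower in kidney (adjusted p 4.59e-10), and Cox7a1, an isoform of muscle, did not pass (-0.14), though it was lower without the H565 lung (-1.23, adjusted p 0.0261). Of 20 citric acid cycle enzymes, 19 were higher and 1 lower (median 1.37), with Suclg2 at 3.17 and Me2 at -1.50. These counts were 17 and 1 without the H565 lung (median 1.35). Of 40 genes of fatty acid oxidation and peroxisomes, 34 were higher and none lower (median 1.57), led by Acot12 at 5.35 (5.97 without the H565 lung), Ehhadh at 4.46 and Ppargc1a, the coactivator of mitochondrial biogenesis, at 3.82. Hadhb, Cpt1b and Acaa1a were among the 6 that did not pass (0.46, 1.06 and 0.31), and Cpt1b was 0.29 without the H565 lung.

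Gluconeogenesis and fructose enzymes were higher in 9 of 10 (median 3.72, and 4.59 without the H565 lung). G6pc, which releases free glucose, had 13.36, 12.99 and 12.47 in kidneys and 4.84, 4.92 and 9.82 in lungs, a difference of 6.42 ± 1.02, and 8.06 without the H565 lung. Fbp1, the fructose bisphosphatase, differed by 5.56, and 7.27 without that lung. Of 33 amino acid catabolism enzymes, 27 were higher and 1 lower (median 2.09), and 29 were higher without the H565 lung (median 2.24). Dao, D-amino acid oxidase, was at least 21.8-fold higher, Asl, argininosuccinate lyase of arginine synthesis, higher by 4.58, and Oat, ornithine aminotransferase, lower (-0.46). The Oat call was lost without the H565 lung (adjusted p 0.0694), and its sign was the opposite in the deposited matrix values (0.27). Of 18 glycolysis genes, 11 were higher (61.1%) and 4 lower (22.2%) in kidney, with a median of 0.86. The shares of all genes were 29.8% and 36.9%. Pgam1 was at 2.34 and Tpi1 at 1.87, against Slc2a3, a neuronal and white cell glucose transporter, at -3.06 and Hk3, a myeloid hexokinase, at least 4.4-fold lower.

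Cytochrome P450 genes were called in both directions, 13 of 29 higher (44.8%) and 5 lower (17.2%), with a median of 0.97. Among all genes, 29.8% were higher and 36.9% lower. Without the H565 lung, 16 of these 29 were higher and 5 lower (median 1.1). This list had a median log2 intensity of 9.689 in the H565 lung, against 6.261 and 6.629 in the H557 and H563 lungs. Cyp2j11 and Cyp2j13 were at least 189.6- and 109-fold higher, each of a family with close relatives that a probe may not tell apart, and Cyp2b10 was lower (-6.46). Cyp2e1 did not pass (2.59 ± 1.10), and was 3.56 without the H565 lung (adjusted p 0.0125). Of 35 conjugation and glutathione genes, 18 were higher (51.4%) and 9 lower (25.7%), with a median of 0.94. Sult1c2 differed by 7.48 and Nat8 by 6.69 (7.57 without the H565 lung), and Gpx2 was at least 25.1-fold lower.

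Transcription factors of nephron development were higher in 14 of 18 and lower in 2 (median 2.64). Hnf4a, a regulator of proximal tubule and liver genes, had 11.49, 11.40 and 11.12 in kidneys and 5.26, 4.63 and 7.98 in lungs, with its highest lung value in H565, and differed by 5.38 ± 0.70, or 6.39 without that lung. Pax8, of nephric lineage, had 7.42, 7.28 and 7.93 in kidneys and 4.91, 4.74 and 4.51 in lungs (at least 6.15-fold higher, adjusted p 3.9e-08). Tfap2b and Lhx1 were at least 30.9- and 32.9-fold higher and Esrrb was higher by 4.98, while Irx2 (-1.46) and Grhl2 (-1.12) were lower. Lung developmental factors were mostly lower in kidney, with none of 22 higher and 19 lower (median -2.69). Nkx2-1, which specifies lung epithelium, had 4.54, 5.29 and 4.62 in kidneys and 10.36, 10.42 and 10.18 in lungs, a difference of -5.51 ± 0.22. Tbx4 had 4.44, 4.44 and 4.63 in kidneys and 11.07, 11.61 and 11.30 in lungs, at least 67.6-fold lower in kidney, Foxf1 was at least 16.5-fold lower, and Hopx and Klf2 differed by -5.64 and -4.76. Sox9 (-0.77, but adjusted p 0.0113 with the mouse as a block), Cebpa (-0.53) and Elf3 (0.42) did not pass.

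Hox genes, which encode position along the body axis, were divided by paralogue number, a division made after these values were seen. Among 11 members with a group number of 6 to 10, all 11 were higher in kidney, with differences of 1.51 to 5.51. Among 10 members numbered 2 to 5, 3 were higher, 4 lower and 3 did not pass, with differences of -1.52 to 3.02. These lower-numbered members were called at close to the shares of all genes, 29.8% higher and 36.9% lower. The ranges of differences overlap. Hoxd10 had 9.88, 9.80 and 9.74 in kidneys and 4.61, 4.54 and 4.52 in lungs, at least 29.5-fold higher in kidney (adjusted p 2.33e-09). Hoxc6 and Hoxd9 were at least 31.1- and 16.6-fold higher, and Hoxd8 was higher by 5.51. Hoxa5, known for a role in lung development, had 9.49, 9.46 and 9.46 in kidneys and 10.81, 10.99 and 10.84 in lungs, and was lower in kidney (-1.41 ± 0.16), as were Hoxb5 (-1.52), Hoxa2 (-1.51) and Hoxa4 (-0.63, not called in the deposited matrix values). Neighbouring Hox genes share regulatory sequence and can be transcribed across each other, so members are not independent.

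**Figure D3:**
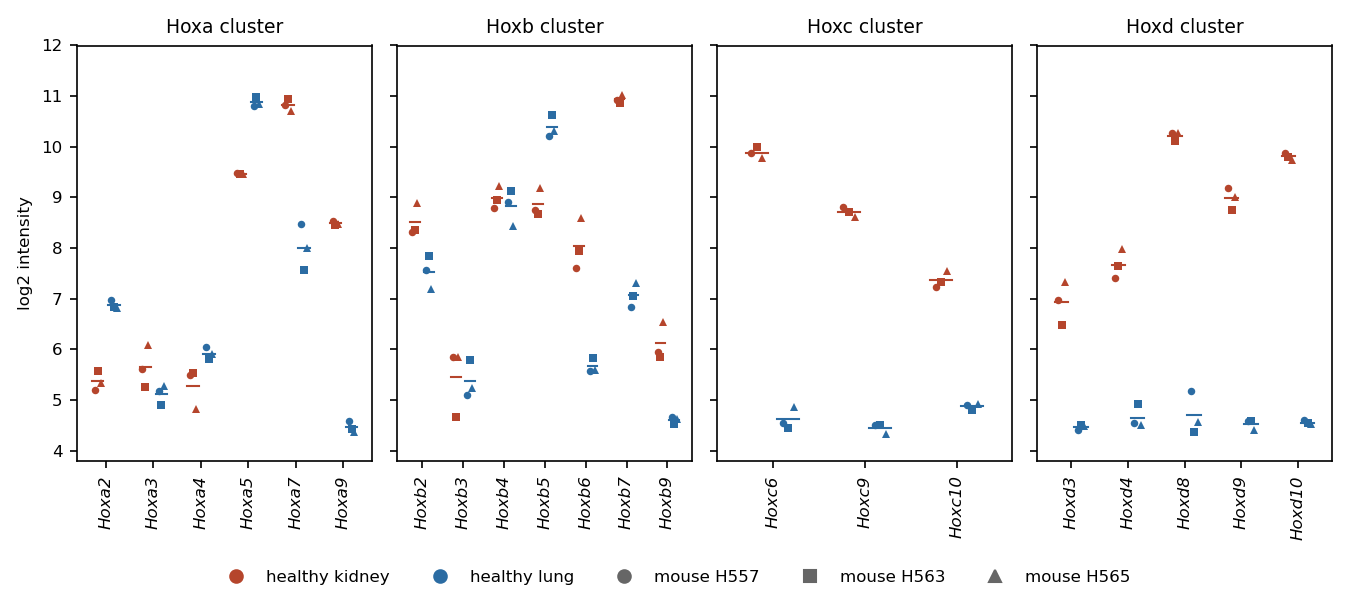
Log2 intensity of 21 Hox genes in each healthy kidney (red, left of each pair) and healthy lung (blue, right) in 4 cluster panels, ordered by paralogue number, with mice marked by shape and bars at the mean of 3. From number 6 upward every kidney lies above every lung. Among numbers 2 to 5, Hoxa2, Hoxa4, Hoxa5 and Hoxb5 are higher in lung, 3 members are higher in kidney and 3 did not pass.

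A search of promoters (250 bases before to 50 after the annotated start, RefSeq, GRCm38.p6) was made for letters close to the binding preference of HNF1, the POU-homeodomain regulator of tubule genes. The motif searched, GTTAAT followed by any base and ATT on either strand, was chosen after other spellings had been tried and the values were known. Among genes at least 8-fold higher in kidney with a promoter in the table, 9 of 331 (2.72%) held it, among those at least 8-fold lower 1 of 395 (0.253%), among all genes tested 30 of 9384 (0.32%) and in the whole set of promoters 127 of 27025 (0.47%). The shorter run GTTAAT, which the longer motif contains, was in 16.6% of the genes at least 8-fold higher, 5.57% of those at least 8-fold lower, 5.86% of the genes tested and 8.24% of all promoters. CTCAAG, a core of NKX2-1 sites, was in 18.4%, 18.5% and 16.9% of the genes higher, lower and tested. AAAGTCC, of HNF4 sites, was in 9.06%, 7.59% and 4.93%. TGTTTAC, of FOX sites, was in 3.93%, 2.78% and 3.34%. TTGCNNAA, of CEBP sites with N for any base, was in 15.4%, 13.4% and 10.7%. A match is a description of letters, not a site shown to be bound. The 9 genes, differing by 3.87 to 8.73, and Hc of the lower genes are given with 30 bases each. They are in the motif's orientation with the motif in capitals, and the capitals are alike because the search selected them.
Cdhr2: tctctgcatgGTTAATGATTgctcagaaga
Cltrn: actgatgggcGTTAATTATTaaacctttta
F13b: gacaaaacaaGTTAATAATTacaatgtctg
G6pc: gtgtgcccaaGTTAATAATTggctctgcca
Glyctk: ttgcctagaaGTTAATCATTcatgaaggac
Habp2: ttgatgcctaGTTAATAATTtgcatcctct
Pcbd1: gaggacccatGTTAATTATTacccgcggcc
Prodh2: gtggtggaggGTTAATAATTaatggttagg
Sult1d1: ccactgatcaGTTAATAATTgactaagagt
Hc: tagttctccgGTTAATTATTaatgtcagag

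The matches began 24 to 221 bases before the start site for the 9 genes. Cltrn, collectrin, which helps amino acid transporters reach the brush border, had 13.22, 13.12 and 13.27 in kidneys and 4.45, 4.62 and 4.35 in lungs, at least 310.2-fold higher. Pcbd1, a dimerisation cofactor of HNF1, had 10.40, 10.71 and 10.53 in kidneys and 5.86, 6.14 and 8.04 in lungs. Its difference was 3.87, and 4.55 without the H565 lung. Without that lung F13b differed by 6.67 (5.07 with it), Glyctk by 4.88 (3.95), Habp2 by 6.81 (5.55) and Prodh2 by 5.89 (4.31). The 250 bases before the start sites of Cltrn and G6pc, both on the plus strand, are shown because the match lies near the start in one and far upstream in the other.
Cltrn, chrX:164089937-164090186: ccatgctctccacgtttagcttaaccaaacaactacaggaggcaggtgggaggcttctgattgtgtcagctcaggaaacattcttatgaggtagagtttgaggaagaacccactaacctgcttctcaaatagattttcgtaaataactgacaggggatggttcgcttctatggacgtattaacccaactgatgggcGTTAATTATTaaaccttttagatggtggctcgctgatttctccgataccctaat
G6pc, chr11:101367466-101367715: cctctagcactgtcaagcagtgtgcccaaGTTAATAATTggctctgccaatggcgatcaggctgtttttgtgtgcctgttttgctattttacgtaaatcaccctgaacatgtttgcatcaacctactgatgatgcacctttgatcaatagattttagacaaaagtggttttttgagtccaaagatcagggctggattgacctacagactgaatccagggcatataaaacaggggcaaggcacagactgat

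Most alveolar and airway epithelial genes were lower in kidney. Of 22 surfactant and type 2 genes, 18 were lower and 1 higher in kidney (median -4.51). Sftpc had 4.56, 4.54 and 4.36 in kidneys and 13.87, 14.03 and 13.92 in lungs, and Sftpb 4.51, 4.69 and 4.52 in kidneys and 12.60, 12.86 and 12.58 in lungs, with no overlap. The exception was Napsa, napsin A, an aspartic protease of both organs, with 14.72, 14.59 and 14.76 in kidneys and 12.55, 12.81 and 12.82 in lungs (1.96 ± 0.18). Abca3, the lipid transporter of lamellar bodies, did not pass, with 13.36, 13.55 and 13.43 in kidneys and 13.30, 13.45 and 13.23 in lungs, though another probe of it was higher by 0.83 and this probe passed with median scaling and in the deposited matrix values. Of 23 type 1 genes, 20 were lower and 2 higher (median -4.5). Ager had 6.31, 5.29 and 5.52 in kidneys and 13.75, 13.94 and 13.96 in lungs, and Aqp5 differed by -7.48. The 2 higher ones were Col4a3 (0.94) and Col4a4 (1.23), collagen chains of the glomerular and alveolar basement membranes. Of 2 other probes of Col4a4, 1 was higher by 1.12 and 1 gave 0.02 and did not pass.

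Club and airway secretory genes were lower in 16 of 20 and higher in 3 (median -4.01, and -5.2 without the H565 lung). In this list the H565 lung had a median log2 intensity of 9.142, against 11.75 and 11.56 in the H557 and H563 lungs. Cyp2f2 had 6.68, 6.71 and 5.92 in kidneys and 15.03, 15.08 and 14.62 in lungs. The 3 higher genes, Kcnj16 (at least 89.5-fold), Sult1d1 (4.17) and Cldn10 (1.98), are also known from kidney tubules. Of 26 motile cilia genes, 19 were lower and 1 higher (median -2.71), and 21 were lower and 1 higher without the H565 lung (median -3.15). This list had a median log2 intensity of 6.772 in the H565 lung, against 8.326 and 8.373 in the H557 and H563 lungs. Tppp3, a tubulin-binding protein, had 4.43, 4.52 and 4.57 in kidneys and 10.60, 11.09 and 10.49 in lungs, and Fam183b was at least 58.1-fold lower. Foxj1, a transcription factor of motile cilia, had 5.69, 5.43 and 5.70 in kidneys and 5.99, 6.11 and 5.68 in lungs and did not pass (-0.32 ± 0.24), with the opposite sign in the deposited matrix values (0.23).

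Most endothelial genes were lower in whole kidney. Of 30 pan-endothelial genes, 26 were lower and 1 higher (median -2.97). Cdh5, VE-cadherin of endothelial junctions, had 6.67, 6.58 and 6.81 in kidneys and 11.59, 11.82 and 11.56 in lungs (-4.97 ± 0.19, adjusted p 6.6e-10). Pecam1 had 7.90, 7.73 and 7.98 in kidneys and 11.29, 11.41 and 11.29 in lungs, and Vwf, von Willebrand factor, 6.45, 5.47 and 6.28 in kidneys and 12.34, 12.23 and 12.49 in lungs. In none of these did the organs overlap. Kdr, the VEGF receptor, was the 1 higher gene (0.49 ± 0.19, adjusted p 0.0371), with 5.33, 6.18 and 5.56 in kidneys and 5.23, 5.30 and 5.07 in lungs. This call was lost without the H565 lung (adjusted p 0.105) and with the mouse as a block (adjusted p 0.079), and with median scaling. Of 23 lung capillary genes, 20 were lower and none higher (median -3.12), with Tmem100 at -6.97 and Lyve1, a hyaluronan receptor of lymphatic vessels, at least 43.6-fold lower. Of 15 kidney and glomerular endothelial genes, 4 were higher (26.7%) and 7 lower (46.7%), near the 29.8% and 36.9% of all genes. The median was -0.23, but 0.34 in the deposited matrix values, and 2 were higher without the H565 lung or with median scaling. Kcnj16, also on the airway list and known from kidney tubules, led the higher ones, and whole-organ RNA does not separate these sources. Nostrin (-3.93) and Plvap, of fenestral diaphragms (-2.14), led the lower ones. Of 36 vascular growth factors and receptors, 4 were higher and 26 lower (median -1.88), but 2 were higher without the H565 lung, with the mouse as a block or with median scaling. Those that passed included Met (2.32) and Pdgfc (1.73), higher in kidney, and Edn1 (-4.75), Vegfd (-3.56) and Tek (-3.13), lower in kidney.

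The 17 claudins tested, with Cldnd1 among them, were called in both directions (median 0.62). The calls were 8 higher (47.1%) and 5 lower (29.4%), against 29.8% and 36.9% of all genes. Cldn2, of the leaky proximal tubule junction, had 12.39, 12.43 and 12.32 in kidneys and 4.71, 4.72 and 6.79 in lungs (6.97 ± 0.48), with the H565 lung above the others. Without that lung the difference was 7.66. Cldn16, of divalent cation passage in the thick limb, had 9.37, 9.15 and 9.29 in kidneys and 4.43, 4.42 and 4.34 in lungs, at least 20.3-fold higher, and its partner Cldn19 was at least 7.48-fold higher. Cldn4 (2.17 ± 0.44), Cldn10 (1.98), Cldn6 (at least 2.08-fold), Cldn1 (1.13) and Cldn12 (0.62) were the other higher ones. Cldn18, of alveolar epithelium, had 5.55, 5.24 and 4.86 in kidneys and 12.10, 12.04 and 12.25 in lungs (-6.91 ± 0.17). Cldn5, of endothelial and alveolar junctions, had 7.99, 8.18 and 7.87 in kidneys and 13.07, 12.99 and 12.63 in lungs (-4.89 ± 0.19), and Cldn3 (-3.26) and Cldn23 (-2.09) were lower. Cldnd1 was lower (-0.69). Cldn15 (0.54, where another probe was higher by 1.21), Cldn11 (1.44 ± 0.91), Cldn9 (0.22) and Cldn7 (-0.18) did not pass, and for Cldn11 the H565 kidney (5.74, 5.71 and 9.97 in kidneys, 6.19, 5.91 and 5.02 in lungs) lay above the others. The signs of Cldn7 and Cldn9 differ between scalings. No other claudin was among the genes tested.

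**Figure D4:**
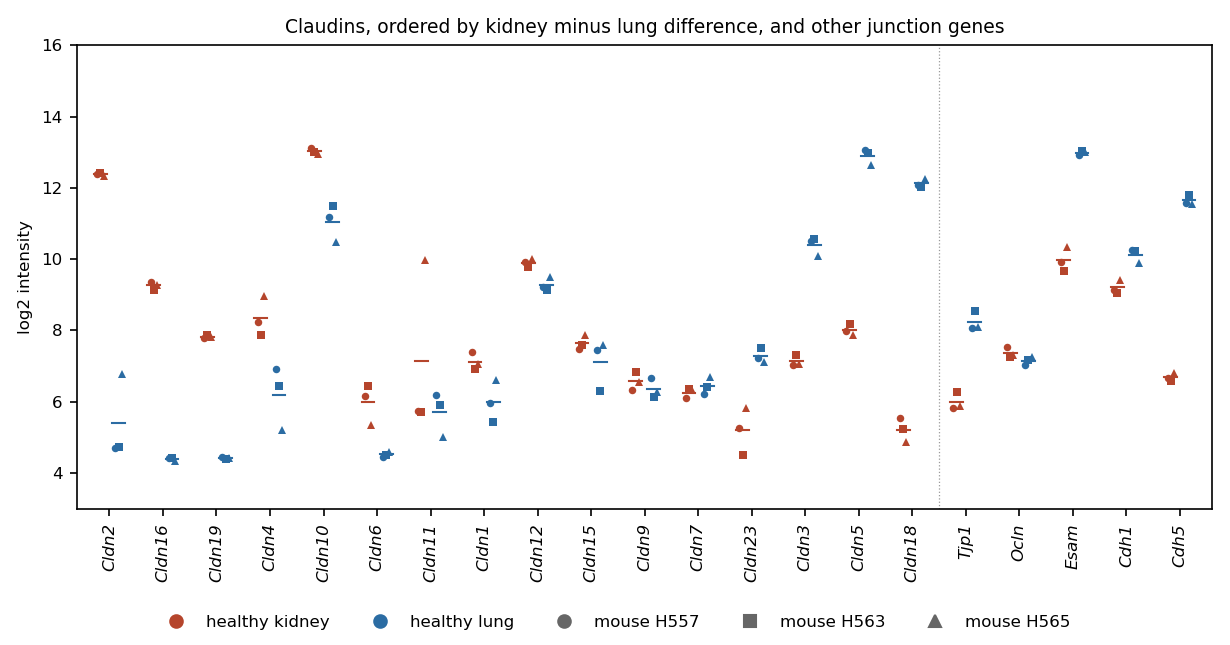
Log2 intensity of 16 claudins, ordered by difference, and 5 other junction genes in each healthy kidney (red, left of each pair) and healthy lung (blue, right), with mice marked by shape and bars at the mean of 3. Cldn2, Cldn16 and Cldn19 lie above all lungs in kidney, and Cldn18, Cldn5 and Cdh5 above all kidneys in lung.

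Other junction genes were called in both directions. Of 25 other tight junction genes, 10 were higher (40%) and 9 lower (36%), near the 29.8% and 36.9% of all genes, with a median of 0.22. The counts were 6 and 9 with median scaling, and 13 and 6 in the deposited matrix values. Tjp1, ZO-1, the scaffold of tight junctions, had 5.84, 6.26 and 5.88 in kidneys and 8.07, 8.55 and 8.10 in lungs (-2.25 ± 0.17, adjusted p 2.53e-07). Ocln, occludin, did not pass (0.22 ± 0.16), with the opposite sign under median scaling. Esam (-3.002), Jam2 (-1.94) and Cxadr (-1.40) were lower and Ildr2 (2.49) and Pard6b (1.14) higher. Of 16 cadherins and catenins, 2 were higher and 11 lower (median -0.93). Cdh16, kidney-specific cadherin, had 13.24, 13.18 and 13.15 in kidneys and 9.09, 8.86 and 9.34 in lungs, higher by 4.10 ± 0.50, and Pkp3 was higher by 0.66, a call lost without the H565 lung (adjusted p 0.0559).

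Most matrix genes were lower in kidney. Of 36 elastic fibre and fibrillar matrix genes, 28 were lower and 1 higher (median -2.48). Mfap4, a microfibril protein, was at least 99.4-fold lower. Eln, elastin, had 5.08, 4.43 and 5.19 in kidneys and 8.62, 8.68 and 8.36 in lungs (-3.65 ± 0.28), Col1a1 differed by -2.87 ± 0.40 and Fn1, fibronectin, by -2.76 ± 0.35. Col18a1 was the 1 higher gene (0.56), and not with the mouse as a block (adjusted p 0.0758). Of 22 basement membrane genes, 6 were higher (27.3%) and 13 lower (59.1%), with a median of -1.22. The shares of all genes were 29.8% and 36.9%, so the higher count is near its share. Tinag (3.50) and Lama1, a laminin chain (at least 6.61-fold), were higher and Lamc1 (-2.47) and Col4a2 (-2.06) lower. Smooth muscle, pericyte and fibroblast genes were lower in 20 of 28 and higher in 2 (median -2.28). Acta2 had 10.21, 9.51 and 10.66 in kidneys and 13.34, 13.48 and 12.34 in lungs, and Wnt2 and Itga8 were at least 15.8- and 7.64-fold lower. The higher genes were Rgs5 (1.79), a pericyte regulator of G-protein signalling, and Kcnj8 (0.78).

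Most genes of the immune lists other than the neutrophil list were lower in kidney. Of 14 T cell genes 13 were lower, of 10 B and plasma cell genes 8, of 9 natural killer genes 7, of 15 MHC class II genes 13, of 24 macrophage genes 16 and of 18 neutrophil genes 9, with 0 higher for B, natural killer, class II and neutrophil genes. The share of all genes called lower was 36.9%, against 50% of the neutrophil genes. Neutrophil genes had median log2 intensities of 7.583, 6.204 and 5.766 in lungs, highest in H557, with 16, 11 and 12 of the 18 above background. The 1 higher T cell gene was Cd8b1, a chain of the CD8 coreceptor (1.79), of which another probe was lower (-2.80), and the 1 higher macrophage gene was Plet1 (0.996), which did not pass with the mouse as a block (adjusted p 0.0529) or by another probe. Medians were -2.0 for T, -1.78 for B, -1.34 for natural killer, -1.86 for class II, -1.36 for macrophage and -1.93 for neutrophil genes. Cd3e had 4.38, 4.37 and 4.60 in kidneys and 7.56, 6.96 and 7.26 in lungs, Cd74, the class II invariant chain, differed by -2.16 ± 0.25, and Chil3, made by alveolar macrophages, was at least 36.1-fold lower. S100a9, a granulocyte protein, differed by -5.33 ± 1.08.

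**Figure D5:**
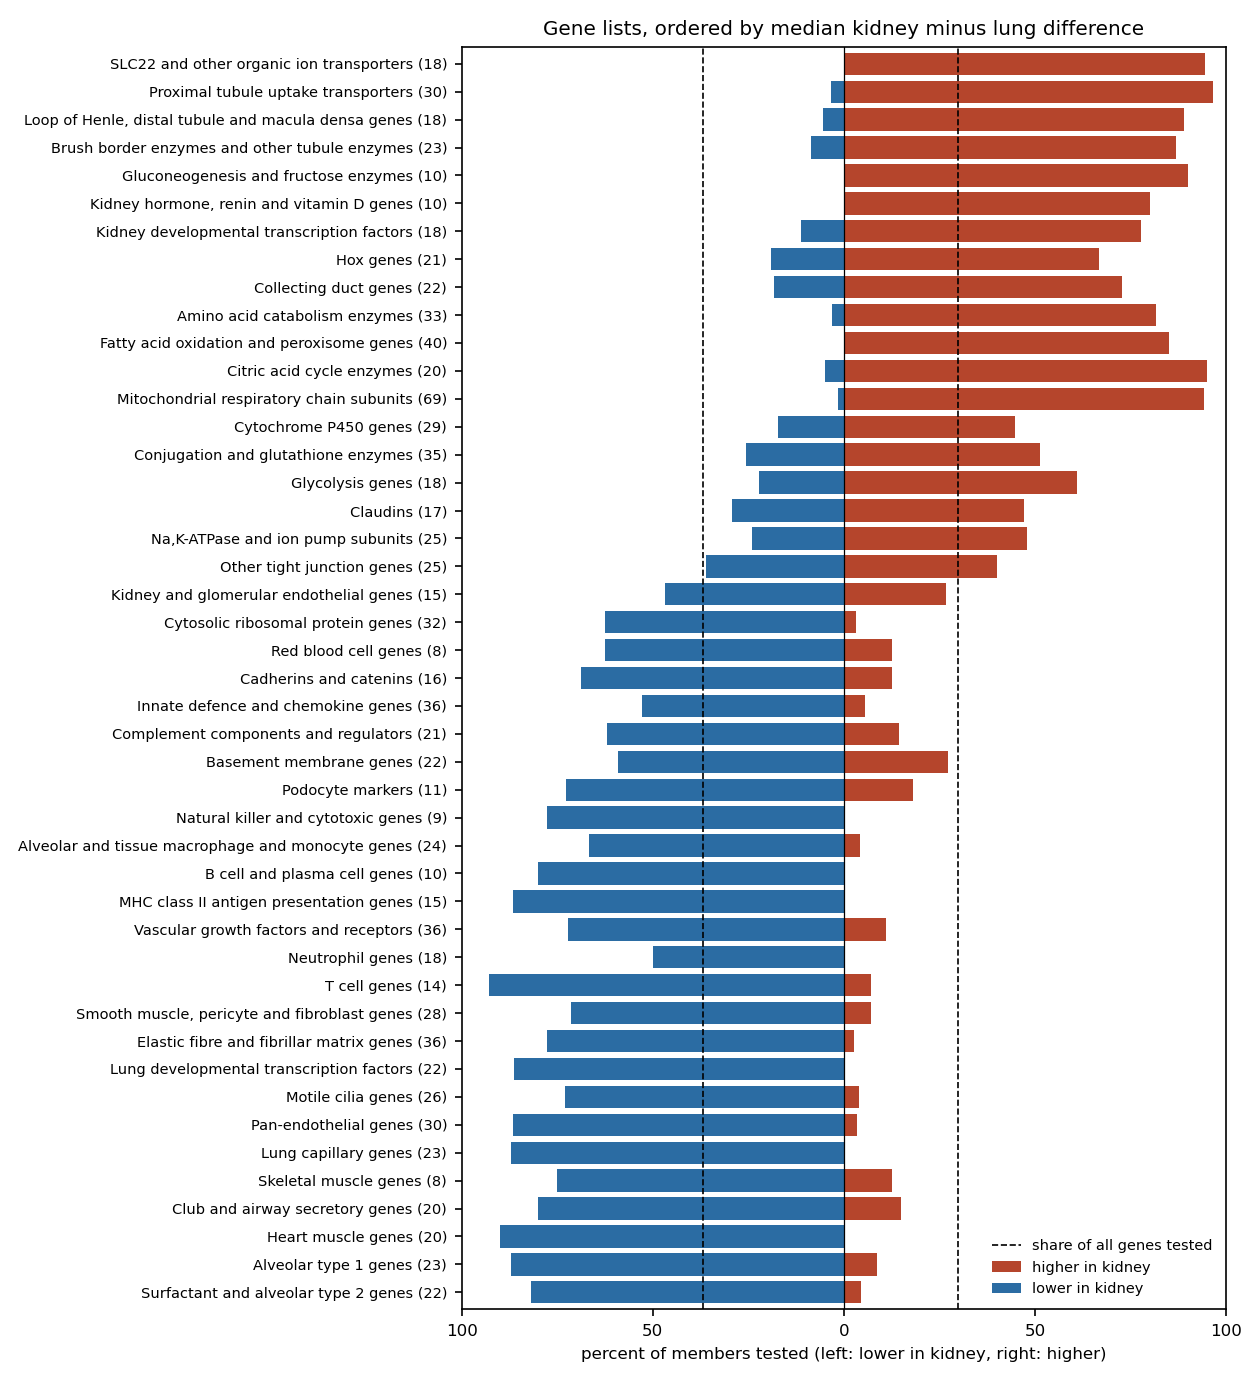
Share of each list's tested members higher (red, right) and lower (blue, left) in kidney, for lists with at least 8 genes tested except the liver list, with the number tested in parentheses and the shares of all genes, 29.8% and 36.9%, as dashed lines. Lists are ordered by median difference, from organic ion transporters at the top to surfactant and alveolar type 2 genes at the bottom.

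The direction was also compared with other samples of the series, UUO kidneys (n = 2) minus lungs of UUO mice (n = 3), which entered the healthy comparison through the shared normalisation, probe choice and spread. Of the genes higher in healthy kidney 2973 of 3469 (85.7%) were above 0 there, and of those lower 3597 of 4293 (83.8%) were below 0. The share of all genes above or below 0 there was not counted, so these percentages have no baseline. By animal number, a UUO kidney and a UUO-mouse lung came from the same mouse. No control is shared between the healthy and the UUO samples, but the treatment differs.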

How the data were processed

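Total RNA of mouse organs was extracted with TRIzol and measured as biotinylated cRNA on Illumina arrays, per the labels' protocols. The deposited values are raw probe signal intensities, each with a deposited detection p-value, and GenomeStudio 5.0 is named in the submitters' processing notes. The deposited matrix values, used as an alternative, are background-subtracted intensities on a linear scale, raised to a floor of 16 before log2. Earlier steps are not stated by them.

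Signals were background corrected and quantile normalised over 15 arrays with neqc (offset 16) of limma 3.58.1 in R 4.3.3. The 2 arrays of 1 UUO-mouse lung were averaged, which gave 14 samples in 5 groups. Of 45281 probes, 21048 (46.5%) were kept because 2 or more samples had a detection p under 0.01. Among these, 18022 named 1 gene in GEO's platform annotation, and each of 11648 genes was read from its brightest such probe on average. Old symbols were updated through RefSeq (GRCm38.p6). One mean per group was fitted with limma and eBayes (9 residual and 3.06 prior degrees of freedom), so the spread is pooled over the 5 groups. Arrays have no read depth, and precision is set by how many there are. The fit was also run on simulated data with known changes. Those data had independent noise, no pairing by mouse and no transcripts of other tissues in single samples. No result here rests on that run.

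The labels' animal numbers pair the organs. The deviations of the 2 organs of a mouse from their group means correlated at -0.08 (H557), 0.02 (H563) and -0.12 (H565), and the main fit has no block. A fit with the mouse as a block of the 6 healthy samples was an alternative, as were other background corrections, scalings, filters, probe choices, variance models and thresholds, and leaving out each sample or the mouse H565.

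Genes were named by a rule: the 10 largest and 10 smallest differences among genes that passed, with no overlap between organs and a probe above background in every sample of the higher organ. For each list described, up to 5 higher, 5 lower and 3 not passing were named. Fixed kidney, lung, vessel, junction and matrix genes and the sex and liver genes were added. The genes with an HNF1-like promoter match (Cdhr2, Cltrn, F13b, Glyctk, Habp2, Hc, Pcbd1, Prodh2 and Sult1d1) were named after their values were seen, also where the rule covers them. Members and lists were chosen with earlier results of these data known. Lists were described by counts and medians, with no set test.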

Additional observations from a re-analysis of the deposited data

How the results depend on the processing

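Against 3469 genes higher and 4293 lower in kidney, the counts stayed within 1.5 times under the other settings run, except with a 2-fold threshold (1209 higher and 1630 lower), with the deposited matrix values (2801 lower, beside 5127 higher) and with every probe tested on its own (5790 higher, beside 6081 lower). With the mouse as a replicate block, 3372 were higher and 4164 lower, and without mouse H565 the block gave 3309 and 4219. Leaving out 1 sample at a time gave 3202 to 3286 higher and 3917 to 4193 lower. Of 186 named genes that passed, 157 kept their call in every setting run. Aqp1 and Oat changed sign with the deposited matrix values, to 0.34 and 0.27, and neither passed there. The cause was not tested. The block ended the calls of Apoc1, Rbp4, Kdr, Elf5, Plet1 and Col18a1 and gave calls to Slc4a1 and Sox9, and it changed no other call of a named gene. Leaving out 1 sample ended these calls, with the highest adjusted p in each case: Apoc1 (0.0945, lung H565), Aqp1 (0.099, kidney H557), Col18a1 (0.169, lung H557), Elf5 (0.0954, kidney H557), Hoxa4 (0.113, kidney H565), Kcnj8 (0.0643, kidney H565), Kdr (0.174, kidney H563), Oat (0.0694, lung H565) and Pkp3 (0.0575, kidney H563). It gave calls to Atp6v1b1 (0.0286) and Fgfr1 (0.00837) without kidney H565, Cebpa (0.0361) and Gatm (0.041) without kidney H557, Cpt1b (0.00258) without lung H557, and Cox7a1 and Cyp2e1 without lung H565.

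The precision is limited by 3 mice per organ. Levels near background are bounds only, the 2 organs differ in how many probes were above background, and scaling moves the median of all genes from -0.30 with median scaling to 0.32 with the matrix values, so small differences have no settled sign.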

Other observations

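Further gene groups were also counted, beside 29.8% higher and 36.9% lower among all genes. Of 21 complement genes, 3 were higher and 13 lower in kidney (median -1.11), with Cfb, factor B of the alternative pathway, higher by 2.16 ± 0.47 (2.80 without the H565 lung) and Hc, complement component C5, with 6.04, 5.08 and 4.60 in kidneys and 10.81, 10.83 and 11.06 in lungs. Serping1, the C1 inhibitor, differed by -2.71 ± 0.18. Of 36 innate defence and chemokine genes, 2 were higher, 1 of them without the H565 lung, and 19 lower (median -1.01). Ccl28, a mucosal chemokine, had 7.36, 7.73 and 6.21 in kidneys and 4.63, 4.38 and 4.43 in lungs, at least 4.51-fold higher in kidney, and Cxcl13, a B cell attractant, was at least 10-fold lower.

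Of 25 sodium pump and other ion pump genes, 12 were higher (48%) and 6 lower (24%) in kidney (median 0.39). The shares of all genes were 29.8% and 36.9%. Atp1b1, the beta subunit of the sodium pump, had 13.92, 13.94 and 14.23 in kidneys and 12.42, 12.16 and 11.89 in lungs, a difference of 1.87 ± 0.17, and Slc12a2, the widely expressed salt cotransporter, differed by -1.74 ± 0.20. Of 8 red blood cell genes, 1 was higher and 5 lower (median -0.76), but 2 higher and 2 lower in the deposited matrix values (median -0.00067) and 1 higher and 3 lower with median scaling, so the list has no settled direction. Its genes included Alas2, the first enzyme of erythroid heme synthesis, at -3.38 ± 0.45 and Fech, the last, at 1.38 ± 0.19. Globin probes of alike genes may read each other.

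Of 32 cytosolic ribosomal protein genes, 1 was higher and 20 lower in kidney (median -0.45). The same 32 gave 16 higher and 1 lower with the deposited matrix values (median 0.27), so their direction is not settled.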
